A study of Drosophila melanogaster with 3 samples.

Results

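Intergenic summits of the Ems-eGFP ChIP-seq peak list are described here: the summits of listed peaks that fall in the DNA between protein-coding genes. A summit is the base of highest signal in a peak. A summit was counted as intergenic when it lay more than 500 bp from the transcription start site (TSS) of every protein-coding gene, outside every protein-coding gene body and outside the exons of non-coding genes. The authors' optimal list, derived from all 3 replicates and filtered on reproducibility, keeps 3866 peaks, and 484 of them met this rule (12.5%). The other 3382 summits comprised 2113 within 500 bp of a protein-coding TSS, called promoter summits, 1139 in introns and 130 in exons.

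Chromatin immunoprecipitation followed by sequencing (ChIP-seq) recovers the DNA bound by a protein, and here the protein was Ems carrying a green fluorescent protein tag. The animals were *Drosophila melanogaster* of strain 16T-GFP, a transgenic line with stable expression of *ems* fused to GFP at the C-terminal end. Whole embryos aged 0 to 24 hours, of both sexes pooled, gave 3 biological replicates in 1 group, and the chromatin had been sonicated to fragments of 200 to 800 bp. The experiment description names an antibody against GFP, whereas another field gives the antibody as ems; no values of the control library enter here. The labels name no promoter for the fusion, and a whole embryo mixes tissues with and without Ems, so a peak cannot be assigned to a tissue. Each replicate list held 30000 entries. The lists carry no read counts, and sequencing depth is unknown. Spreads over n = 3 measure only the differences between these samples, and p-values below rest on summits, which are places in 1 genome and not biological replicates.

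Ems (Empty spiracles) is a homeodomain transcription factor needed in the fly embryo for head segments, brain regions, tracheae and the posterior spiracles. Homeodomains bind short cores that contain TAAT. Intergenic DNA of the fly carries enhancers, which raise transcription of genes at a distance, silencers such as Polycomb response elements, and insulators, which are bound by proteins such as CTCF, Su(Hw) and BEAF-32 and separate neighbouring regulatory domains. Motif 1 and the DREF site are elements of housekeeping promoters.

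The letters ACACTG, which are part of motif 1, were the 6-mer with the highest ratio over flanks at intergenic summits. The bases around them were alike at intergenic and intronic summits and differed at promoter summits. Sites are shown 5′ to 3′ on the strand that spells the motif, with 12 bases to each side and the searched letters in capitals. The first set holds TACACTG, the form most common at intergenic summits, at the 6 summits of highest signal among those that hold it and are matched in all 3 replicates.
Between slp1 and slp2, chr2L:3832416-3832446, + strand: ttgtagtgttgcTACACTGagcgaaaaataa
Between CG3149 and AdamTS-B, chrX:5696578-5696608, − strand: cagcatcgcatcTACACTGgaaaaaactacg
Between noc and CG33648, chr2L:14502690-14502720, + strand: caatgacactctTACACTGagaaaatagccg
Between CG9452 and Cpr76Ba, chr3L:19516797-19516827, + strand: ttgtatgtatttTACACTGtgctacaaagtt
Between CG7573 and CG6168, chr3L:11319019-11319049, − strand: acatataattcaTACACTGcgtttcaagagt
Between soti and cv-c, chr3R:14391364-14391394, − strand: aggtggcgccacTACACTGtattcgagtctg
The second set, from 4 promoter summits of highest signal chosen in the same way, holds TCACACTG, in which C precedes the shared letters.
Promoter of RpL7, chr2L:10200976-10201007, − strand: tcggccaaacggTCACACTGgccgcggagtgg
Promoter of Fhos, chr3L:8766236-8766267, + strand: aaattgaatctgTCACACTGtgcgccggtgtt
Promoter of nrv1, chr2L:6787333-6787364, − strand: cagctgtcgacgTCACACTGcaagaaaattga
Promoter of Polr2F, chr3R:5371787-5371818, − strand: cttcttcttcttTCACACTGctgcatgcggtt
All coordinates are on dm6, and the bases are those of the RefSeq copy of that assembly (Release 6). The sets were chosen by their letters after the values had been seen, so they illustrate the counts given further on and test nothing. The printed TACACTG was not always the site of ACACTG nearest to its summit. Between slp1 and slp2 it lay 77 bp from the summit, whereas a site within TCACACTG, the form printed for promoters, lay 5.5 bp away. Nearer sites without T before them also lay between noc and CG33648 (37.5 against 95 bp) and between CG9452 and Cpr76Ba (31.5 against 79 bp).

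Intergenic summits of highest signal are shown next, with 50 bases to each side of the summit on the + strand and matches to any of 17 searched motifs in capitals. The highest of all lay in the gap between mtSSB, which encodes the mitochondrial single-stranded DNA binding protein, and tara (taranis), a trithorax group gene.
mtSSB and tara, chr3R:16222440-16222540, rank 14: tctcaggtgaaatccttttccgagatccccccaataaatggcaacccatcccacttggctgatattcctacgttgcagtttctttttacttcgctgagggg
Cyt-c1L and eEF1gamma, chr3R:29214404-29214504, rank 23: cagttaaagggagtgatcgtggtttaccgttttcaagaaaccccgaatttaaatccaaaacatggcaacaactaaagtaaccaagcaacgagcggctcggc
RFeSP and chinmo, chr2L:1638783-1638883, rank 67: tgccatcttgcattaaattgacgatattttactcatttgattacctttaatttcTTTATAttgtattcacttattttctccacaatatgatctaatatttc
COX7AL2 and CG31668, chr2L:2202367-2202467, rank 74: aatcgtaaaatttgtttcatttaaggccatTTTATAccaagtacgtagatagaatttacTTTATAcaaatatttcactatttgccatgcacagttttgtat
RasGAP1 and CG10809, chr3L:9855889-9855989, rank 97: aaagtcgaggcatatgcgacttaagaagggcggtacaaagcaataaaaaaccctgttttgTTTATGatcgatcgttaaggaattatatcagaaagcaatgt
mtSSB and tara, chr3R:16224447-16224547, rank 101: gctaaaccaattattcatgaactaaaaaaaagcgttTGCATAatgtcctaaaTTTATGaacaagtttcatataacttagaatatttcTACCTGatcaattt
None of these 6 windows held TAATTA or ACACTG, and the first pair held no searched motif. The counts given further on use wider windows of 100 bp to each side. In its wider window, the summit between COX7AL2 and CG31668 held ACACTG, 74.5 bp from the summit. Of the 20 highest-signal intergenic summits matched in all 3 replicates, 5 held ACACTG and 2 held TAATTA in the wider windows. The capitals mark TATAAA, the TATA box (read here as TTTATA on the opposite strand), and TTTATG, a homeodomain core of the Caudal and Abdominal-B type. They also mark TGCATA, part of the Su(Hw) site, and CAGGTA, the Zelda site, read as TACCTG. In the wider windows TATAAA lay at 32.2% of intergenic summits and in 23.4% of windows tiled over all intergenic sequence. Its ratio over flanks, 1.49, lay among those of palindromes of A and T given further on.

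The number of intergenic summits was similar in the replicates' own lists. Among the 3866 highest-signal peaks of each list, replicate 1 had 404 intergenic summits (10.5%), replicate 2 had 472 (12.2%) and replicate 3 had 479 (12.4%), or 11.7% ± 1.07 (SD, n = 3). Sequence that met the rule covered 38.4 Mb, 28.7% of the 6 chromosome arms, so the optimal list held 12.6 intergenic summits per Mb (exact Poisson 95% interval 11.5 to 13.8), against 11.8 ± 1.08 per Mb in the replicates. Intervals cover counting error only. By arm, 74 lay on X, 110 on 2L, 80 on 2R, 119 on 3L, 95 on 3R and 6 on chromosome 4. A small number of summits share a peak: the peaks of 20 intergenic summits overlapped the peak of another, and as many were matched to 1 peak shared with another in each replicate. All 484 had a 50-bp summit sequence that occurs once on the 6 arms.

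Intergenic summits were densest close to a protein-coding TSS and scarce more than 20 kb from one. Their distance to the nearest protein-coding TSS ran from 504 to 61964 bp with a median of 3948.5 bp. Density was 34.9 per Mb at 500 to 1000 bp from a TSS (interval 27.4 to 43.8) and 26.1 per Mb at 1 to 2 kb. It was 15.7 per Mb at 2 to 5 kb, 10.6 per Mb at 5 to 10 kb and 13.6 per Mb at 10 to 20 kb. Beyond 20 kb lay 24 summits (4.96%), although 27.8% of intergenic bases are that far from a TSS, and the density there was 2.25 per Mb (1.44 to 3.35). Each replicate showed the same ends of this range, with 34.4 ± 2.83 per Mb at 500 to 1000 bp and 1.88 ± 0.163 per Mb beyond 20 kb (SD, n = 3). Just inside the 500 bp limit, 18 intergenic summits lay 500 to 600 bp from a TSS, with a median rank of 1984.5 and 72.2% matched in all 3 replicates; just outside it, the 30 summits outside genes at 400 to 500 bp had a median rank of 1853.5 and 70% matched.

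**Figure D1:**
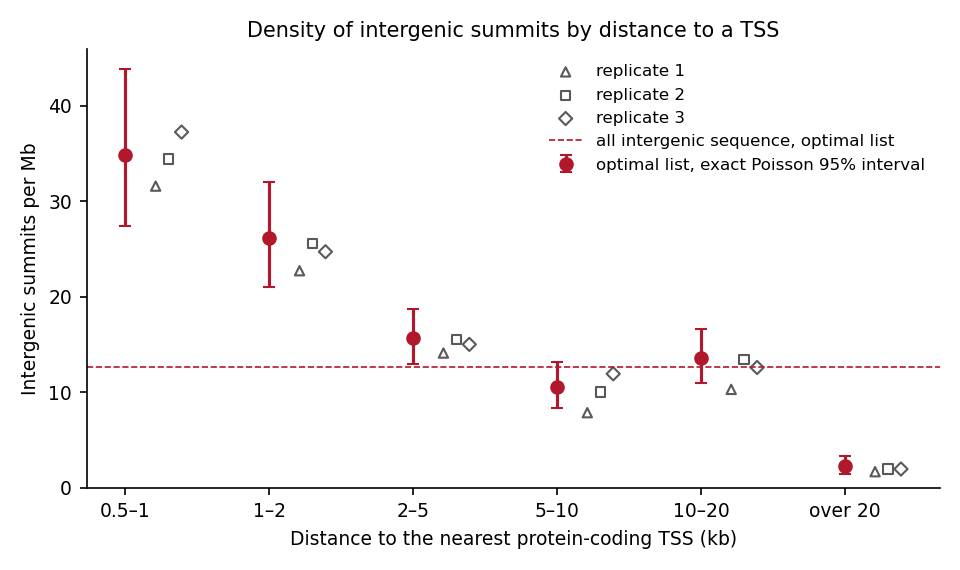
Intergenic summits per Mb of intergenic sequence (y axis) in 6 bins of distance to the nearest protein-coding TSS in kb (x axis). Filled points are the optimal list with exact Poisson 95% intervals, open symbols are the 3866 highest-signal peaks of each replicate, and the dashed line is the mean of all intergenic sequence, 12.6 per Mb; all 4 lists fall below that line beyond 20 kb.

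Most intergenic summits lay upstream of the nearest TSS, which need not belong to the nearest gene. Of the 484, 324 were upstream of their nearest TSS (66.9%, exact binomial 95% interval 62.6 to 71.1) and 160 lay downstream, past the 3′ end of the gene it belongs to. The share of intergenic bases upstream of the nearest TSS was not computed. Divergent gaps, whose flanking genes both point away from the gap, held 166 summits (34.3%) in 23.7% of the intergenic bases. Tandem gaps held 229 (47.3%) in 49.6% of the bases, and convergent gaps, which hold no protein-coding start of the flanking genes, held 89 (18.4%) in 21.9% of the bases. The share in divergent gaps was 33.5% ± 1.88 in the replicates (SD, n = 3).

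Transposable elements held almost none of the intergenic summits. Annotated elements held 2 summits (0.413%, interval 0.0501 to 1.48) and make up 10.9% of intergenic bases; the replicates had 1, 4 and 3. One, of rank 1524, lay between CG43774 and ed, a cell adhesion gene, and the other, of rank 3295, between fuss and toy. Soft-masked bases, a wider class that includes simple repeats, held 84 summits (17.4%) and make up 26.6% of intergenic bases. The authors' treatment of reads with several matches is not given in the sources used here, and its part in these counts was not tested.

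Non-coding genes lay near a minority of the summits. The rule removed their exons but not their surroundings, and 64 summits (13.2%) lay within 500 bp of a long non-coding RNA gene, whose surroundings make up 5.85% of intergenic bases. In the replicates this share was 12.4% ± 0.697 (SD, n = 3). A TSS of any non-coding gene lay within 500 bp of 33 summits (6.82%), against 2.32% of intergenic bases, and 26 summits (5.37%) lay in an intron of a non-coding gene, against 3.42% of bases. Few summits lay near small RNA genes, whose surroundings are also a small part of the sequence. Within 500 bp of snoRNA genes lay 3 summits (0.62%, against 0.0377% of intergenic bases), of microRNA genes 2 (0.413%, against 0.0866%), of snRNA genes 1 (0.207%, against 0.0202%), of tRNA genes 1 (0.207%, against 0.228%) and of rRNA genes 0. Those 0 of 484 allow a share of up to 0.759% (upper exact binomial bound). The exact binomial intervals of microRNA genes (0.0501 to 1.48%) and of snRNA and tRNA genes (both 0.00523 to 1.15%) include their shares of bases. That of snoRNA genes (0.128 to 1.80%) does not. Near microRNA genes replicates 1, 2 and 3 had 0, 2 and 0 summits. The 6 highest-signal summits within 500 bp of a non-coding gene lay 108 bp from lncRNA:CR31044 (rank 23), 205 bp from lncRNA:CR45668 (rank 188), inside lncRNA:CR44810 (rank 274), 74 bp from Uhg4, a host gene of snoRNAs (rank 285), 152 bp from lncRNA:CR44339 (rank 326) and 471 bp from lncRNA:CR42657 (rank 330).

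Many intergenic summits shared a gap with another, although most gaps with a summit held only 1. The 484 summits lay in 339 of the 5707 gaps between protein-coding genes that hold intergenic bases. In 248 of these gaps there was 1 summit, and the remaining 236 summits shared a gap with at least 1 other. Another intergenic summit lay within 5000 bp of 159 of the 484. The sharing to be expected from the uneven lengths of the gaps was not computed. Over the 484 summits the median length of their gap was 15572.5 bp, against 1618 bp over all gaps. The lengths of all gaps start at 1 bp and have a first quartile of 576 bp. A longer gap offers more sequence that meets the rule, so a difference in this direction was built into the comparison. The first of these medians counts a gap once for each of its summits.

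The gap with most summits lay between RFeSP, which encodes the Rieske iron-sulphur protein of the respiratory chain, and chinmo, which encodes a BTB zinc finger factor that sets temporal identity in neurons. This gap of 37097 bp on 2L held 8 summits. The highest, with its peak at chr2L:1638744-1638985 and its summit 12425 bp from chinmo, had rank 67 in the optimal list and ranks 74, 69 and 62 in replicates 1, 2 and 3. The next, at chr2L:1632714-1632945 and 18401 bp from chinmo, had rank 133, and ranks 77, 173 and 181 in the replicates. The lowest of the 8 had rank 3441, with ranks 1356, 7922 and 3504 in the replicates, so its order differed widely between them. In all, 6 of the 8 were matched in all 3 replicates. The gap between hng3 and CG13898 on 3L held 7 summits, with 4 matched in all 3 replicates, and that between NijA and CG43245 on 3L held 6, also with 4 matched.

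**Figure D2:**
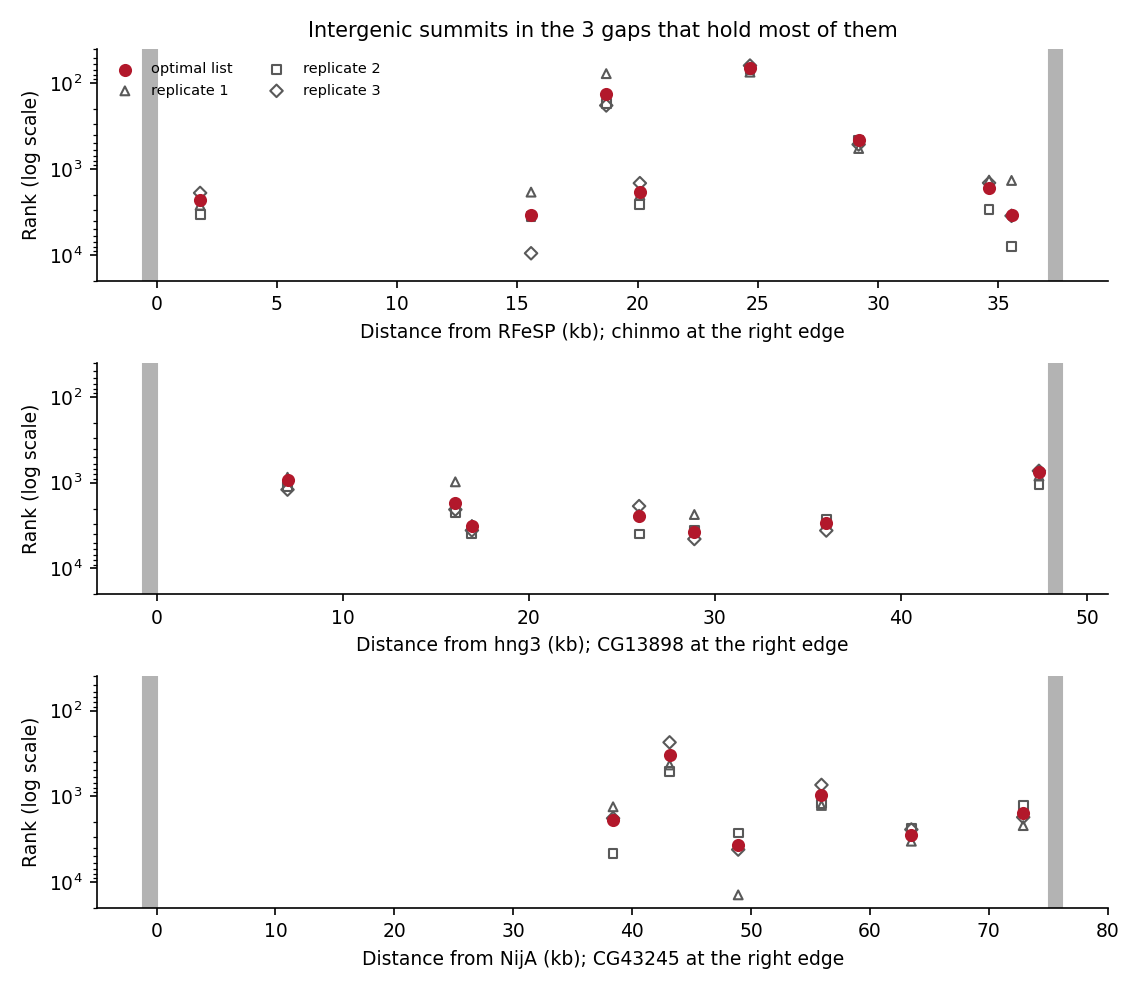
Rank by peak signal (y axis, log scale, strongest at the top) of the intergenic summits in the 3 gaps that hold most of them, against distance in kb from the gene at the left edge of the gap (x axis). Filled points are ranks in the optimal list, open symbols ranks in each replicate's whole list, and grey bars the flanking genes; in the RFeSP to chinmo gap the ranks run from 67 to 3441 in the optimal list.

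Among the 20 highest-signal intergenic summits matched in all 3 replicates, none ranked below 360 in any replicate. They lay in 18 gaps, of which divergent ones held 8 summits, tandem ones 7 and convergent ones 5. The highest, between mtSSB and tara, had ranks 16, 12 and 14 in replicates 1, 2 and 3, and lay 3161 bp from tara. A further summit in the same gap, 1154 bp from tara, had rank 101 and ranks 94, 130 and 92 in the replicates. The summit between Cyt-c1L and eEF1gamma, a translation elongation factor gene, had rank 23, with 24, 25 and 20 in the replicates.

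Of these 20 summits, 2 bordered the Polycomb group genes Su(z)2 and Psc, whose protein class keeps developmental genes silent. They were picked out after their values had been seen, with no list of such genes behind them, and are given as examples. On 2R, the summit between Su(z)2 and CG13323 had rank 24, with 25, 28 and 21 in the replicates, and it lay 27419 bp past the end of Su(z)2. The neighbouring Psc, like Su(z)2 a RING finger protein gene of the Polycomb group, bordered a summit of rank 117 on its CG13321 side. That gap held 4 summits, all matched in the 3 replicates, but their peaks overlap in pairs and each pair shares 1 peak in a replicate. Outside the 20, on X, a summit of rank 608 lay between ph-d and ph-p, the polyhomeotic genes, 768 bp from the TSS of ph-d, with ranks 1017, 488 and 702 in the replicates.

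The rest of the 20 had ranks of 40 to 283. Developmental genes among their neighbours were slp1 and slp2, which encode forkhead factors of segmentation and head patterning (rank 110); C15, a homeobox gene of the distal leg, with sp3 (rank 122); slbo, a C/EBP factor gene, with betaTub60D, a tubulin gene (rank 274); and noc, a zinc finger gene, with CG33648 (rank 283). Other neighbours were blw, an ATP synthase subunit gene, with CycB, the mitotic cyclin B gene (rank 40); Act5C, a cytoplasmic actin gene, with CG16721 (rank 188); Atg13, an autophagy gene, with stck (rank 192); and jp, which encodes junctophilin, with brwl (rank 200). The remaining pairs were COX7AL2 and CG31668, RasGAP1 and CG10809, Sol1 and Cyp9f2, CG3149 and AdamTS-B, and CG10479 and PVRAP. That a gene borders a summit does not show that it is regulated from there.

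Near *ems* itself lay 2 intergenic summits, both past its 3′ end in the gap towards Art9, an arginine methyltransferase gene. This gap was 37617 bp long, and the nearer summit lay 10299 bp from *ems*. The nearer ranked 606, with ranks 587, 586 and 738 in replicates 1, 2 and 3, and the farther ranked 1755, with 3083, 1568 and 1694. In the windows of 100 bp to each side, the nearer summit held TTTATG, a homeodomain core, GAGAGA and ACACTG. The farther held GAGAGA and TATAAA beside palindromes of A and T, and neither held TAATTA. The sequences of both, with 50 bases to each side and the 1 motif found, GAGAGA, the GAGA factor site, in capitals, were as follows.
Nearer to ems, chr3R:13914869-13914969, + strand: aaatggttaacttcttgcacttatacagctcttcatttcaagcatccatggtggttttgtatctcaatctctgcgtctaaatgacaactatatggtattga
Farther from ems, chr3R:13915818-13915918, + strand: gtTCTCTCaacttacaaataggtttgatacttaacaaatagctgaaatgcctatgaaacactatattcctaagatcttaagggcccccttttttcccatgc

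Several lists of developmental genes had a larger share of members bordering an intergenic summit than all genes together, and more intergenic sequence beside each gene. Among 11 genes that pattern the head, 6 bordered a gap with a summit, with a median of 29248 bp of intergenic sequence beside each gene: slp1, slp2, btd, ems, oc and croc. Of all 13945 protein-coding genes 631 did (4.52%), with a median of 1331 bp. Only 8081 of the 13945 lay next to any sequence that met the rule, against all 11 head genes, and the rest could not border a summit. The 4.52% is therefore a low standard for lists whose genes mostly lie next to such sequence. btd encodes an Sp family zinc finger factor, and its best summit (rank 330) lay 652 bp from nej, which encodes the acetyltransferase CBP, and 6468 bp from btd. oc (orthodenticle), a homeobox gene of the anterior head, had 3 summits, of ranks 1485, 2009 and 2633, and croc, a forkhead gene, had 2.

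Hox genes, which set segment identity, bordered a summit in 3 of 8 cases, with a median of 23359 bp beside each. abd-A had one of rank 1145, and Dfd and Scr shared one of rank 3708. Of 58 other homeobox genes 13 bordered a summit (22.4%), with a median of 14067 bp; those with the highest were C15 (rank 122), Optix (462), tup (1081), toy (2055), hth (2303) and ftz (2520). Of 11 gap, pair-rule and segment polarity genes 5 did, with 28702 bp: ptc, the Hedgehog receptor gene (rank 648), hry (925), wg, the Wingless ligand gene (2071), kni (2702) and opa (3567). The tracheal and spiracle list, the tissues Ems patterns, had 2 of 12, upd1 (2655) and vvl (2976), with 31076 bp beside each gene (16.7%, interval 2.09 to 48.4). The proneural and bHLH list had 2 of 21, E(spl)mbeta-HLH (537) and E(spl)m3-HLH (2467), with 4169 bp (9.52%, interval 1.17 to 30.4). The intervals of these last lists include the value of all genes.

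The remaining lists stood closer to the 4.52% of all genes. Cytoplasmic ribosomal protein genes bordered a summit in 4 of 86 cases, with a median of 499.5 bp, led by RpS7 (rank 596). Chemoreceptor genes did in 8 of 179 cases, with 4243 bp, led by Or56a (968), and cuticle protein genes in 5 of 70, with 2156 bp, led by Cpr76Ba (444). Sequence that met the rule lay next to only 50 of the 86, 117 of the 179 and 63 of the 70 genes. No test was made over lists, and the part of the length of intergenic sequence in these counts was not tested.

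Intergenic summits ranked lower by signal than the others. Their ranks ran from 14 to 3857 with a median of 2289.5, against a median of 1878.5 for the other summits. Among the 1933 highest-signal peaks of the optimal list, the upper part, were 194 of 484 intergenic summits (40.1%, 35.7 to 44.6), against 1739 of 3382 others (51.4%), a difference of -11.3 percentage points (two-sided Fisher's exact test, p = 3.67e-06, adjusted p = 1.47e-05 over 4 tests). Against intronic summits alone the difference was -10.6 points and against promoter summits alone -12.4 points. The replicates' own lists had the same direction, at 46.8% against 50.4% in replicate 1, 43.0% against 51.0% in replicate 2 and 43.0% against 51.0% in replicate 3. In replicate 1 the difference was below the test's threshold (exact p = 0.189).

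The share of intergenic summits was smallest at the top of the list. In 5 bins of the optimal list, each of about 773 peaks, it was 8.93%, 9.18%, 13.7%, 16.3% and 14.5% from the highest signal to the lowest. Below the optimal list, in the joint list called on all replicates together, it was 13.4% to 17.5%.

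Intergenic summits were matched in all replicates less often than others, and this went with their lower rank. A summit counts as matched in a replicate when its peak shares 1 bp or more with any of that replicate's 3866 strongest peaks. All 3 replicates matched 275 of 484 intergenic summits (56.8%) and 2224 of 3382 others (65.8%), a difference of -8.94 points (two-sided Fisher's exact test, adjusted p = 0.000328). Within the upper part of the list the shares were 95.9% and 96.5%, and within the rest 30.7% and 33.2% (two-sided Fisher's exact test, adjusted p = 0.543 for both), so neither part alone showed a difference past the threshold. Replicate 1 matched 72.5% of intergenic summits and 80.2% of others, replicate 2 matched 83.3% and 86.04%, and replicate 3 matched 86.4% and 88.3%. When all entries of each replicate were allowed to match, the difference was 0.12 points. Without replicate 1 the difference in matches to both others was -4.89 points. Where all 3 replicates matched, their summits lay within a median span of 42 bp at intergenic and 45 bp at other summits. Only 4 intergenic summits were matched in none.

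**Figure D3:**
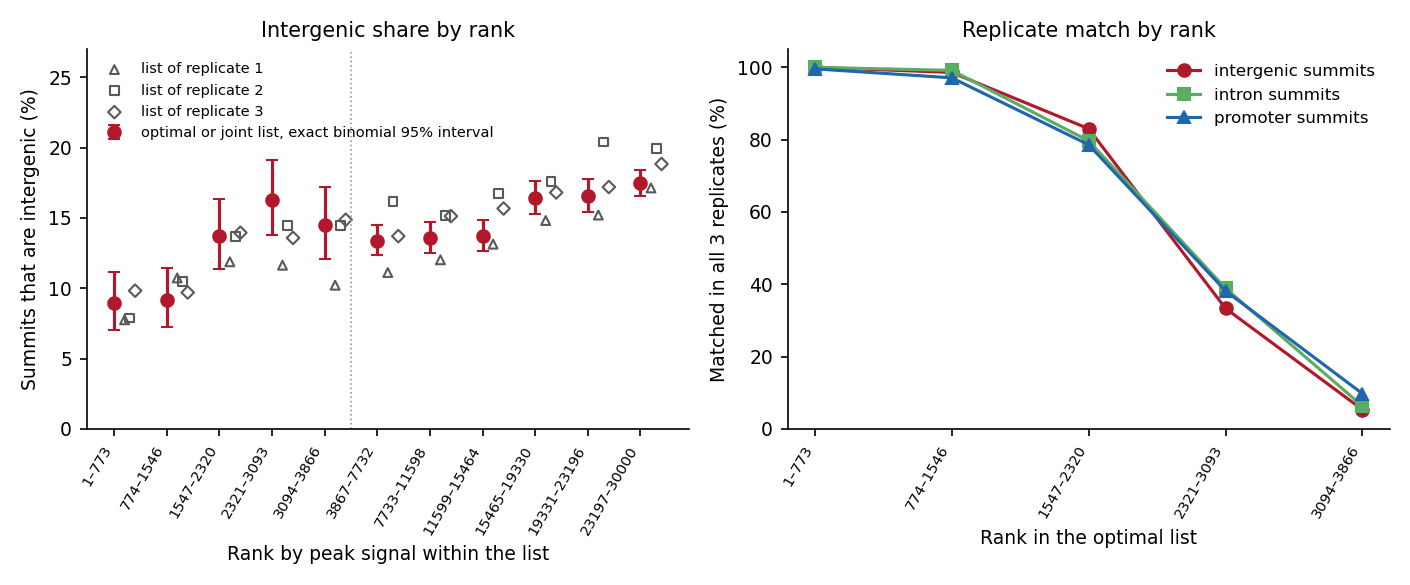
Left, share of summits that are intergenic (y axis, %) by rank within a list (x axis), with exact binomial 95% intervals for the optimal and joint lists and open symbols for the lists of each replicate; the dotted line marks the end of the optimal list. Right, share of intergenic, intronic and promoter summits matched in all 3 replicates (y axis, %) by bin of the optimal list (x axis); intergenic shares run from 100% in the highest bin to 5.36% in the lowest, close to those of the other classes.

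Intergenic summits were richer in A and T than their surroundings. The 201 bp around them had a mean GC content of 37.0%, against 41.5% in their flanks, equally long windows whose centres lay 500 bp away on either side, and 40.8% over 187202 windows tiled over all intergenic sequence. Other summits had 37.6% and their flanks 43.9%. The comparison of all 6-mers (reverse complements joined) showed the same: 175 were more frequent at intergenic summits than in their flanks (8.41%) and 139 less frequent (6.68%), with the same direction in every replicate (exact conditional test on sets of 1 summit window and 2 flanks, Benjamini-Hochberg adjusted p at most 0.05). Of the 175, 148 had 4 or more A or T, and of the 139, 112 had 2 or fewer, so these counts move with base composition. They were 103 and 64 without replicate 1, 79 and 38 without replicate 2, and 70 and 36 without replicate 3, where peaks had to be matched in both of the others. The 5 least frequent at summits were CCGGGA (ratio of shares 0.103), CGGGCC (0.163), GCCCGA (0.203), CAGGAC (0.228) and CGACTC (0.245).

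The 6-mers most enriched at intergenic summits were not the richest in A and T. ACACTG lay within 100 bp of 107 intergenic summits (22.1%, 18.5 to 26.1), against 7.23% of their flanks and 7.19% of all intergenic windows, a ratio of 3.03 (exact conditional test, adjusted p = 4.45e-12). In the replicates the ratio was 2.85, 2.41 and 2.90. The next were AGTGTA (ratio 2.72), AGTATC (2.71), GTACAC (2.67) and ACTGAG (2.67), of which all but AGTATC overlap the letters TACACTGAG or GTACACTG. ACACTG was enriched by 2.87 at promoter summits and by 2.66 at intronic summits, so the 6 letters themselves did not set intergenic summits apart: 22.1% of intergenic and 20.5% of other summits held them (Fisher's exact test, adjusted p = 0.787 over all 6-mers).

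The bases around ACACTG were alike at intergenic and intronic summits and differed at promoter summits. At intergenic summits 52.5% of 122 sites had T just before the motif, at intronic summits 52.3% of 222 and at promoter summits 16.6% of 519, where A (41.6%) and C (36.03%) were most common. In the 8 bases after it, A made up 54.0% at intergenic, 53.4% at intronic and 29.9% at promoter summits. Counting from the first base of ACACTG, the most frequent bases at intergenic summits were A at position 7 (42.6%), G at 8 (49.2%) and A from 9 on, with 73.0% at positions 12 and 13. T before the motif was found in 46.7% of the sites at intergenic summits in the upper part of the list and 55.8% in the rest, and at promoter summits in 21.2% and 12.1%. These positions were examined after the data had been seen and no test was made of them.

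Forms longer by 1 or more letters also differed in their shares. TACACTG was held by 58 intergenic summits (11.98%, 9.23 to 15.2; 10.9% ± 0.441 in the replicates, SD, n = 3), against 9.39% of intronic and 3.88% of promoter summits. The flanks of these classes had 2.27%, 1.49% and 1.40%, and all intergenic windows 1.89%. TCACACTG showed the opposite order, with 0.413% of intergenic, 0.702% of intronic and 3.88% of promoter summits; flanks of intergenic summits had 0.723%. At promoter summits TCACACTG was as frequent as TACACTG, and the forms AACACTG (3.72% of intergenic, 2.63% of intronic and 9.47% of promoter summits) and CACACTG (5.17%, 4.48% and 8.19% in the same order) were more frequent than either. TACACTGAG was held by 18 intergenic summits (3.72%; 3.73% ± 0.749 in the replicates) and by 0.103% of their flanks. The summits between slp1 and slp2 and between noc and CG33648, printed above, both hold this last form.

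The test against other summits, over all 6-mers, called few. There were 13 more frequent at intergenic summits (0.625%) and 18 less frequent (0.865%; two-sided Fisher's exact test with Benjamini-Hochberg adjustment, same direction in every replicate), and 255 had an unadjusted p under 0.05. Without replicate 1, 3 and 8 were called, without replicate 2, 2 and 4, and without replicate 3, 1 and 5. The 5 highest were AGGCTC (ratio 2.40), AGGATC (2.33), CCATAG (2.27), CACCTA (1.86) and CTGAGA (1.86). CTGAGA was held by 14.9% of intergenic and 8.04% of other summits (exact test, adjusted p = 0.00201). Of the 9 successive 6-mers spelled by the most frequent bases from 1 before ACACTG to position 13, 7 were called more frequent than in flanks and 5 more frequent than at other summits. Those 5 were AGTGTA (the reverse complement of TACACT; 21.3% against 13.8%), CACTGA (22.9% against 15.6%), ACTGAG (15.9% against 9.23%), CTGAGA and GAGAAA (27.3% against 18.3%); they overlap and are not independent. The bases that spell the 9 were read from these same intergenic windows, so their calls are no separate support for a longer motif. Against the 1139 intronic summits alone 0 of all 6-mers were called in either direction, and against promoter summits alone 55 higher and 61 lower.

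The BEAF-32 type site, the DREF site and the core CAGCTG were less frequent at intergenic than at other summits, a class in which promoters prevail. CGATAG, a BEAF-32 type site, lay at 3.93% of intergenic and 14.7% of other summits, a ratio of 0.274 (exact test, adjusted p = 3.6e-10; 0.272 ± 0.0401 in the replicates, SD, n = 3). At promoter summits it was held by 21.1%, or 4.603 times their flanks, whereas intergenic summits had 3.31% in their flanks and 3.88% in all intergenic windows. Intronic summits held it at 3.86%, or 1.07 times their flanks. TATCGA, part of the DREF site, lay at 6.61% against 18.9% (ratio 0.356, exact test, adjusted p = 3.6e-10), and the whole DREF site TATCGATA at 0.826% against 6.03%. Intronic summits had 0.263% and promoter summits 9.51% for TATCGATA. CAGCTG, a core bound by bHLH proteins, lay at 4.13% against 12.005% (ratio 0.352, exact test, adjusted p = 1.07e-05), and it was also rarer than in the summits' own flanks (7.95%, ratio 0.526). CAGCTG was held by 7.11% of intronic and 14.9% of promoter summits. CGTGAA (0.352) and GAACGC (0.376) completed the 5 lowest. GTGTGA, which is also part of motif 1, did not follow ACACTG: it lay at 7.02% of intergenic summits, 7.85% of their flanks and 12.4% of other summits (ratio to flanks 0.896; ratio to other summits 0.576, Fisher's exact test, adjusted p = 0.00202 over 22 motifs).

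Parts of the CTCF and Su(Hw) sites, both insulator motifs, stood above their flanks at intergenic summits. The ratio of the Su(Hw) part was like that of palindromes of A and T. TGGCGC, part of the CTCF site, lay at 11.8% of intergenic summits, 6.92% of their flanks and 6.69% of all intergenic windows, a ratio of 1.69 (exact conditional test, adjusted p = 0.00795 over 22 motifs; 1.67 ± 0.0453 in the replicates, SD, n = 3). The same ratio was 0.705 at intronic and 0.891 at promoter summits; the difference between classes was tested only as the share of summits, 11.8% against 8.49% (Fisher's exact test, adjusted p = 0.0627). AGGTGGCGC, the form with 3 more letters of the CTCF site, lay at 12 intergenic summits (2.48%, 1.29 to 4.29), 0.207% of their flanks, 0.0972% of all intergenic windows, 0.439% of intronic and 0.473% of promoter summits. A pair of these sites, at summits of high signal, is shown with 12 bases to each side.
Between jp and brwl, chr2L:9567472-9567504, − strand, rank 200: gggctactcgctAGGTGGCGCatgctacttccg
Between soti and cv-c, chr3R:14391402-14391434, − strand, rank 594: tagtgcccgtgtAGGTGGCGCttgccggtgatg
TGCATA, part of the Su(Hw) site, lay at 18.8% of intergenic summits and 13.02% of their flanks (ratio 1.44, exact test, adjusted p = 0.0121), with ratios of 1.28 at intronic and 1.29 at promoter summits. Other summits held it at 14.04% (Fisher's exact test, adjusted p = 0.0319). Palindromes of A and T, the controls for base composition given further on, had ratios to flanks from 1.31 (TATATA) to 1.58 (ATATAT) at intergenic summits. The part of base composition in the ratio of TGCATA was not tested. GAGAGA, the GAGA factor site, had a ratio of 1.29 (exact test, adjusted p = 0.169), and CAGGTA, the Zelda site, 1.73 (adjusted p = 0.0819); neither passed the threshold.

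**Figure D4:**
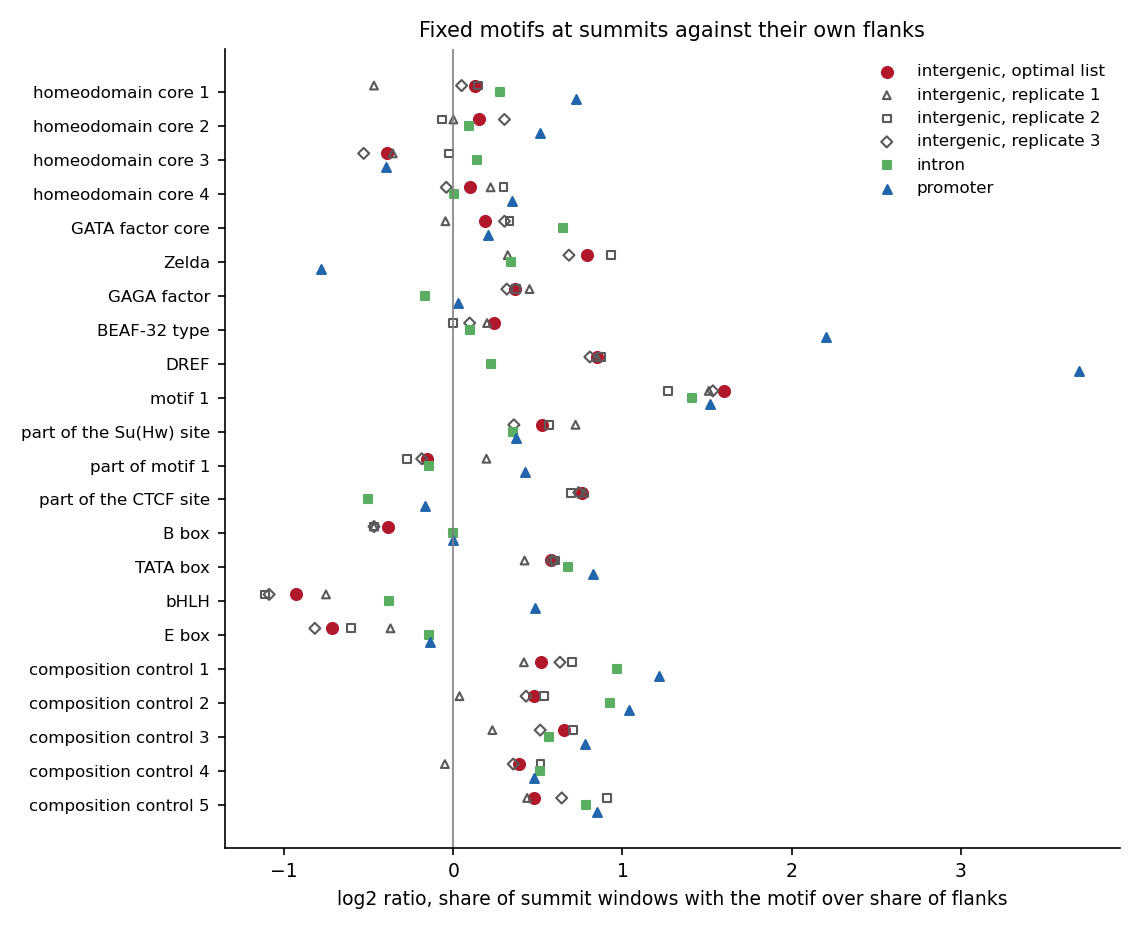
Log2 ratio of the share of summit windows holding a motif to the share of flanks (x axis) for 22 fixed motifs (y axis), among them 4 homeodomain cores (core 1 is TAATTA) and 5 palindromes of A and T as composition controls. Filled red points are intergenic summits of the optimal list, open symbols those of each replicate, squares intronic and triangles promoter summits; ACACTG, labelled motif 1, stands at 1.60 for intergenic summits and GTGTGA, labelled part of motif 1, at -0.16, while the BEAF-32 type and DREF elements stand apart at promoter summits.

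Homeodomain cores were not detectably enriched over the flanks at intergenic summits. TAATTA lay at 69 intergenic summits (14.3%, 11.3 to 17.7), 13.02% of their flanks and 14.2% of all intergenic windows, a ratio of 1.09 (exact conditional test, adjusted p = 0.592). The replicates had ratios of 0.722, 1.11 and 1.03, so the direction differed between them. At promoter summits the ratio was 1.65 and at intronic summits 1.21, and 15.2% of other summits held TAATTA (exact test, adjusted p = 0.776 for the difference in share). TAATGA (core 2, ratio 1.11), TAATCC (core 3, 0.763) and TTTATG (core 4, 1.07) did not pass the threshold either. TTTATG was, however, more frequent at intergenic than at other summits, at 25.6% against 20.55% (Fisher's exact test, adjusted p = 0.0456 over 22 motifs). Intronic summits held it at 24.2% and promoter summits at 18.9%. Of 5 palindromes of A and T used as controls for base composition, 3 had ratios of 1.43 (TTTAAA, control 1), 1.39 (AATATT, control 2) and 1.58 (ATATAT, control 3), past the threshold, so TAATTA stood below them. TATATA (control 4, 1.31) and TTATAA (control 5, 1.39) did not pass it. At promoter summits the controls had ratios from 1.39 (TATATA) to 2.32 (TTTAAA), and TAATTA, at 1.65, lay within that range. At intronic summits they had 1.43 (TATATA) to 1.95 (TTTAAA), and TAATTA, at 1.21, lay below all of them.

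TAATTA also did not gather at the strongest intergenic summits. It lay at 8.64% of the 162 of highest signal (4.81 to 14.07), 15.5% of the next 161 and 18.6% of the 161 of lowest signal, against 14.5%, 13.04% and 11.5% of their flanks. ACACTG was present at 19.8%, 19.9% and 26.7% of the same 3 classes, and 98.1%, 63.4% and 8.70% of the summits in them were matched in all 3 replicates. By distance to a TSS, ACACTG lay at 19.3% of summits within 2 kb, 21.1% at 2 to 10 kb and 27.7% beyond 10 kb, with overlapping intervals. The site of ACACTG nearest to the summit lay at a median of 52.5 bp at intergenic and 43.5 bp at promoter summits.

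**Figure D5:**
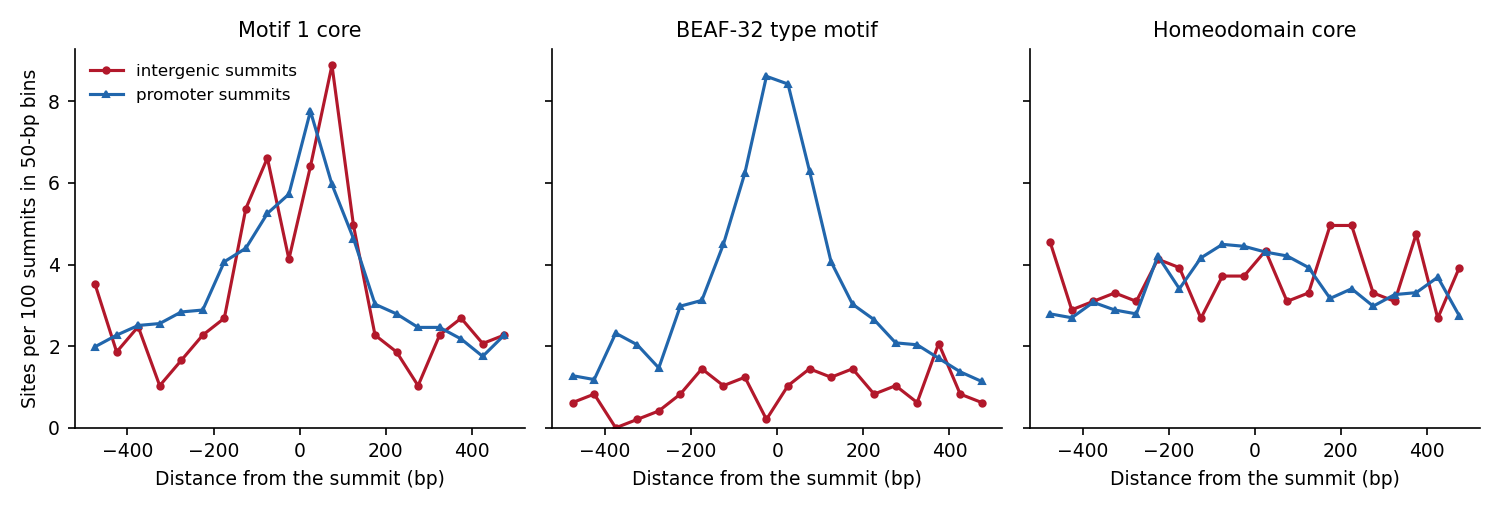
Sites per 100 summits in 50-bp bins (y axis) against distance from the summit in bp (x axis) for ACACTG (left), CGATAG (middle) and TAATTA (right), at intergenic and promoter summits. ACACTG is most frequent within about 150 bp of the summit in both classes, with 8.88 sites per 100 intergenic summits in the bin centred at 75 bp and 4.13 in the one at -25 bp; CGATAG peaks at promoter summits, at 8.61, and TAATTA has no peak at intergenic summits.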

How the data were processed

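For 3 replicates, for all replicates together and for the optimal list (filtered on the irreproducible discovery rate), narrowPeak lists on dm6 were read. Peak signal, in the authors' deposited column of unstated scale, served to rank peaks inside each list and for nothing else. The deposited −log10 q column entered no result, and the dm3 lists were set aside. Lists were called from alignments and a control file, per the deposited notes; no aligner or peak caller is named there. The summit is the start plus the deposited offset.

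Summits were placed with Ensembl annotation release 115 of the Release 6 assembly (dm6); exons of transposable elements were not counted as exons of non-coding genes. Motifs were counted on both strands within 100 bp of summits and in flanks centred 500 bp away. The exact conditional test treats the 3 windows of a set as equally likely to hold a motif; ratios have 0.5 added to both counts. Python 3.11.15, numpy 2.4.6, pandas 2.3.3, scipy 1.17.1 and matplotlib 3.10.9 were used, and the 6-mer tests were tested on simulated data. Motifs with more letters than the 22 fixed ones, the bases around them and the overlaps of 6-mers with them were added after the data had been seen. Named are the genes beside the 20 highest-signal summits matched in all replicates and beside summits near *ems*, up to 6 genes per list, 6 non-coding genes and 5 6-mers at each end. The members, motifs and gene lists were chosen with earlier results of these data known. Sequences are those of RefSeq, Release 6; those on arm 2R are not shown. Alternatives covered the TSS distance, gene bodies, replicates, windows, flanks, overlap rule and the summits compared with.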

Additional observations from a re-analysis of the deposited data

How the results depend on the processing

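No paired analysis was possible because the series has 1 group. Of 92 recomputed values, 50 kept their direction and size or call, 36 moved and 6 reversed; the causes were not tested beyond the smaller numbers of summits that some settings leave. The intergenic share was 15.8% with a TSS distance over 250 bp, 10.6% over 1000 bp, 6.67% with 2 kb added to gene bodies, and 11.1% to 11.8% without 1 replicate (peaks matched in both others). The difference in the share among the 1933 highest peaks (-11.2 to -8.04 points) and in replicate matches (-9.19 to -4.89) kept its call without each replicate. The match difference was 0.12 points, reversed, with whole replicate lists. The log2 ratio of TAATTA, never past the threshold, was -0.33 to -0.12 without 1 replicate, -0.45 among the 1933 highest peaks and -0.0103 with flanks 1000 bp away.

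The 175 and 139 6-mers higher and lower than flanks became 70 to 103 and 36 to 64 without 1 replicate, 89 and 41 with 2 kb added to gene bodies, 77 and 38 with windows of 200 bp, and 14 and 10 among the 1933 highest peaks, which hold 194 summits. The lower count was 247 over 250 bp and 73 with windows of 50 bp. The 13 and 18 against other summits became 1 to 3 and 4 to 8 without 1 replicate, 1 and 6 with windows of 50 bp, 25 and 43 with 200 bp, 1 and 3 among the 1933 highest, 0 and 0 against intronic summits and 55 and 61 against promoter summits. The lower count was 9 over 1000 bp and 10 with 2 kb added. Leaving out summits in transposable elements, chosen after seeing the data, moved no value by over 1.5 times. Peak lists without read counts limit precision to the number of summits.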
